A study of Mus musculus with 6 samples.

Results

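Structural genes of elastic fibres and microfibrils, 10 in number, were followed in mouse calvaria-derived cells: the fibrillin genes Fbn1 and Fbn2, the microfibril-associated protein genes Mfap2, Mfap4 and Mfap5, the elastin gene Eln, the fibulin genes Fbln2 and Fbln5, Ltbp2 and Emilin1. All 10 were found by Ensembl identifier among the 57180 genes of the deposited count table, and 9 of them held enough counts to be tested. The cells were isolated from the skull vault and differentiated in osteogenic medium with 10% serum, ascorbate and 4 mM β-glycerophosphate. The 3 wt libraries came from C57BL/6 mice. The 3 libraries labelled FasL KO came from B6Smn.C3-Faslgld/J mice, which are homozygous for gld, a point mutation of the Fas ligand gene, and are called gld here. Neither group received added ligand, and per the series' design text both were cultured beside ligand-treated gld cells, whose 72 h treatment began at day 14 and which are not analysed here. The sample records carry the same day 14 and 72 h for each of the 6 libraries used here. The labels give no age. They also leave unsaid whether replicate libraries stem from different mice or dishes, and the p-values reflect nothing but the spread among the 6 libraries, which may be technical.

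Elastic fibres let tissues stretch and recoil. They have a core of crosslinked elastin laid down on a scaffold of microfibrils, which are beaded filaments of fibrillin with associated glycoproteins. Microfibrils also occur without elastin, in periosteum, ligament and cartilage, where they bear load and hold latent TGF-β and BMPs in the matrix. In bone-forming cells fibrillin microfibrils are known to set how much of these growth factors reaches the cells.

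The libraries held 2011173 to 3105322 counts in wt and 4048258 to 5245546 in gld, and 1 count was worth 0.205 to 0.470 CPM (counts scaled by library total and TMM). Levels here are CPM, given as mean ± SD over 3 libraries. Because the reads come from the 3′ ends of transcripts and their number depends on how a gene's end is annotated, levels were compared between groups and not between genes. The last 300 exonic bases of the principal transcript lie in a single annotated transcript for Fbn2, Mfap5 and Fbln5, and are shared with other transcripts over part of their length for Emilin1, Eln and Mfap2 and over nearly all of it for Fbn1, Mfap4, Fbln2 and Ltbp2. No other gene overlaps these ends except at Mfap4, where Mapk7 lies on the opposite strand. The osteoblast marker Dlx5 was listed at 0, and Bglap, Spp1 and Sp7 had 1, 4 and 20 counts over all 6 libraries, while Col1a1 stood at 7621 ± 1653 CPM (wt) and 27144 ± 1821 CPM (gld; SD, n = 3). The osteoblast marker Alpl went the other way, at 222 ± 40.5 CPM (wt) and 48.2 ± 5.53 CPM (gld; SD, n = 3). The end of Dlx5 is shared between transcripts, so its count of 0 does not show that the transcript was missing. In bulk RNA such as this, fewer cells of a type and less RNA per cell cannot be told apart.

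Elastin, the second fibrillin, the small microfibril protein MAGP-1 and emilin-1 were higher in gld, and the related small microfibril protein MAGP-2 was lower. By edgeR's quasi-likelihood test of gld against wt, Fbn2, Mfap2, Eln and Emilin1 rose and Mfap5 fell, while Fbn1, Fbln2, Fbln5 and Ltbp2 did not pass and Mfap4 could not be tested. Of all 8692 genes tested, 17.4% were called at an adjusted p of 0.05, 9.74% as higher and 7.69% as lower. The median log2 fold change was 1.08 over the 9 tested members and 0.02 over all genes tested. The members' median is the value of Ltbp2, which was not called and had an SE of 1.18. Fbln5 reached the count minimum in only 1 wt library but in all 3 gld libraries, so its passing the filter leaned on the group in which its counts were higher. Summed over the members, the wt libraries gave 4.19, 5.32 and 4.50 of every 10000 counts and the gld libraries 17.2, 18.7 and 17.2. Most of this sum was Fbn2, Mfap2 and Emilin1. Under scaling by total count alone, all genes tested had a median of −0.14 in place of 0.02, and the calls went from 847 higher and 668 lower to 720 higher and 975 lower. The members' calls were 4 higher and 1 lower under both scalings.

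**Figure D1:**
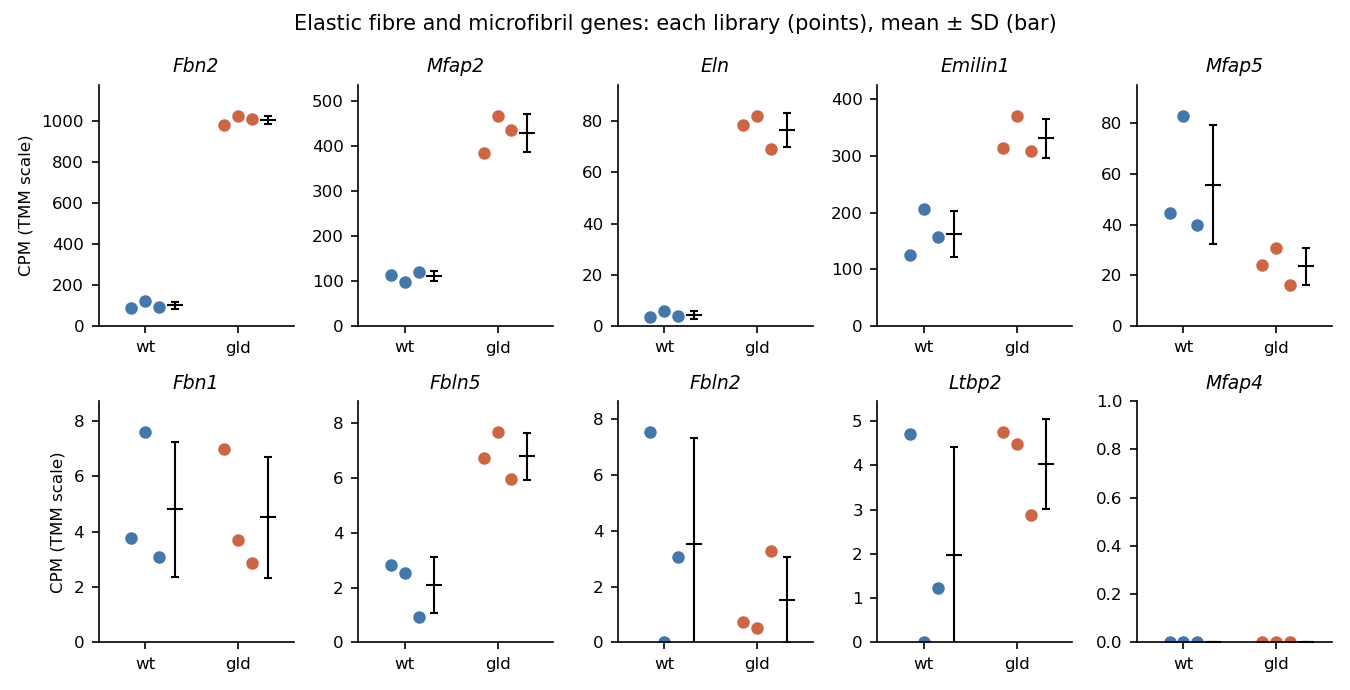
CPM on the TMM scale (y axis, from 0, different in each panel) for each of the 10 genes in the wt and gld libraries. Points are libraries and bars are mean ± SD over 3 libraries. The groups stand apart for Fbn2, Mfap2, Eln, Emilin1, Mfap5 and Fbln5, overlap for Fbn1, Fbln2 and Ltbp2, and Mfap4 is at 0 throughout. Of all genes tested, 33.3% had groups that did not overlap.

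Fibrillins form the backbone of the microfibril. Fbn2 (ENSMUSG00000024598, GRCm38 chromosome 18, 58008623 to 58210487, minus strand, 65 exons), which encodes the fibrillin of embryonic and early postnatal tissues, was counted 190, 380 and 308 times in the wt libraries and 3949, 3894 and 4929 times in the gld libraries. Its level went from 101 ± 16.5 CPM to 1008 ± 21.1 CPM (SD, n = 3). Every gld library lay far above every wt library, and the gld libraries differed little from each other, at 985, 1027 and 1012 CPM. The log2 fold change was 3.31 ± 0.14 (SE, edgeR adjusted p = 8.37e-10), a 9.92-fold difference that ranked 15th by p-value among all genes tested. The call held in each of 11 alternative fits, with values from 3.16 to 3.45.

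Fbn1 (ENSMUSG00000027204, chromosome 2, 125300594 to 125507993, minus strand), the fibrillin gene mutated in Marfan syndrome, did not pass the test. The wt libraries held 8, 24 and 10 counts of it and the gld libraries 28, 14 and 14, or 4.81 ± 2.43 against 4.52 ± 2.18 CPM (SD, n = 3). The groups overlapped fully, with the highest library of each at 7.59 and 6.98 CPM. Its log2 fold change was −0.10 ± 0.82 (SE, edgeR adjusted p = 0.969), and its sign turned in some alternative fits. From counting error alone the pooled gld to wt ratio was 0.899 with a 95% exact interval of 0.592 to 1.38. The last 300 bases of the principal Fbn1 transcript also lie in other annotated transcripts of the gene, and how the counting treated such shared ends is not given in the sources.

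Microfibril-associated glycoproteins bind fibrillin along the filament. Mfap2 (ENSMUSG00000060572, chromosome 4, 141010418 to 141015984, plus strand) encodes MAGP-1, a small protein found on nearly all microfibrils that binds fibrillin, tropoelastin and TGF-β. Its counts were 242, 310 and 388 in wt libraries, against 1536, 1769 and 2121 in gld libraries, or 110 ± 11.0 against 428 ± 42.1 CPM (SD, n = 3). All 3 gld libraries lay above all 3 wt libraries. Mfap2 rose by 1.96 ± 0.14 on the log2 scale (SE, edgeR adjusted p = 1.67e-07), and it was called in all 11 alternative fits.

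Mfap5 (ENSMUSG00000030116, chromosome 6, 122505845 to 122529290, plus strand) encodes MAGP-2, the other small glycoprotein of this family, which binds fibrillins and, through an RGD motif, integrins. The wt libraries held 95, 262 and 130 counts of it and the gld libraries 97, 116 and 78. After scaling, the wt levels were 44.6, 82.8 and 39.9 CPM and the gld levels 24.2, 30.6 and 16.0 CPM. The groups did not overlap, as was the case for 33.3% of all genes tested, but the lowest wt library was close to the highest gld library. Mfap5 fell by 1.25 ± 0.34 on the log2 scale (SE, edgeR adjusted p = 0.0179). The call rested on single libraries: it was lost without wt 2, the highest (−0.84, adjusted p = 0.139), and without gld 3, the lowest (−1.04, adjusted p = 0.0671), though it held in the other 9 of 11 alternatives.

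Mfap4 (ENSMUSG00000042436, chromosome 11, 61485431 to 61488900, plus strand), which encodes a fibrinogen-domain protein that binds elastin, fibrillin and lysyl oxidase, had no count in any library. At 3 counts a group, counting error leaves room for up to 0.351 CPM in wt and 0.237 CPM in gld. Its end is shared between transcripts, as is that of Gapdh, which is listed at 0 as well. A count of 0 therefore does not show here that the transcript was missing.

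Eln (ENSMUSG00000029675, chromosome 5, 134702593 to 134747323, minus strand, 37 exons) encodes tropoelastin, the soluble precursor that is crosslinked into the elastic core. The wt libraries held 7, 19 and 12 counts of it and the gld libraries 314, 311 and 337. The wt levels were 3.29, 6.01 and 3.68 CPM and the gld levels 78.3, 82.0 and 69.2 CPM, so the lowest gld library was more than 10 times the highest wt library. The log2 fold change was 4.11 ± 0.32 (SE, edgeR adjusted p = 3.4e-07), a 17.2-fold difference and the largest among the 10 genes. It lies above 97.8% of all genes tested and ran from 3.96 to 4.43 over the 11 alternatives, each of which called it. With 38 wt counts in all, the pooled ratio of 17.1 had a 95% exact counting interval of 12.4 to 24.3.

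Emilin1 (ENSMUSG00000029163, chromosome 5, 30913402 to 30921277, plus strand) encodes a glycoprotein at the border of elastin and microfibrils that restrains the processing of pro-TGF-β. Its counts were 268, 650 and 509 in wt libraries, against 1261, 1405 and 1500 in gld libraries, or 163 ± 40.1 against 331 ± 34.4 CPM (SD, n = 3). The groups did not overlap, with the highest wt library at 205 and the lowest gld library at 308 CPM. Emilin1 rose by 1.02 ± 0.17 on the log2 scale (SE, edgeR adjusted p = 0.000574), and all 11 alternatives called it.

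**Figure D2:**
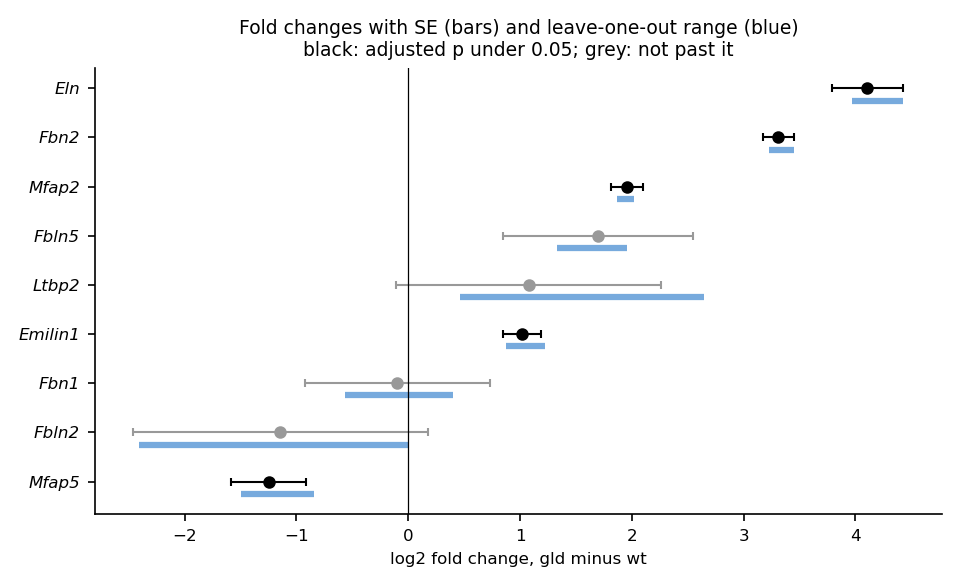
Log2 fold change, gld minus wt (x axis), of the 9 tested genes (y axis). Points with bars are fitted values ± SE, black where the adjusted p was under 0.05, and blue lines span the values with each library left out in turn. Eln and Fbn2 lie farthest to the right, and Mfap5 is the called gene on the left of 0.

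RefSeq promoter windows on GRCm38.p6, from 250 bases before to 50 after the annotated start, were used for 6 of the 10 genes. The 6 did not include every gene that rose, and a window left out here does not mean that RefSeq holds none. The windows of Mfap2 and Emilin1 are printed because these genes rose together. Each was searched on both strands for TATAAA, which the TATA-binding protein binds, for CCAAT, for the Sp1-type motif GGGCGG, for the AP-1 motif TGANTCA, for the Smad motif GTCTG and for the E-box CACGTG. Capitals mark the matches, none of which overlap. The window of Mfap2 nearer to the gene body is chr4:141010431-141010730 and that of Emilin1 is chr5:30913536-30913835, both on the plus strand.
Mfap2: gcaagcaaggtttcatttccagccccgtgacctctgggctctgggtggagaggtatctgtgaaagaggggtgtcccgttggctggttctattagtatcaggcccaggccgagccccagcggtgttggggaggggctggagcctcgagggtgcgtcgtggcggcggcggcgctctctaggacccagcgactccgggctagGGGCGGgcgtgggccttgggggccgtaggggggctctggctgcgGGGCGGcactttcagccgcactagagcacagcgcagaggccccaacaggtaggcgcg
Emilin1: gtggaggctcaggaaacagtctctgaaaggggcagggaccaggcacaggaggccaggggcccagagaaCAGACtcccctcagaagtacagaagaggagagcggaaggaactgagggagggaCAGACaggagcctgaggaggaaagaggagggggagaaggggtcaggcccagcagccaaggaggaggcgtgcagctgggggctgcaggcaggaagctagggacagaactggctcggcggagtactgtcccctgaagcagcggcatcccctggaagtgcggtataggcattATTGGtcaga

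The printed Mfap2 window held 2 Sp1-type motifs and no match to the other motifs. A second Mfap2 window in the table, chr4:141010174-141010473, held 1 Smad motif and 1 CCAAT motif. The Emilin1 window held 2 Smad motifs and 1 CCAAT motif, the last of these past the start and on the reverse strand. The Smad motif and CCAAT were thus found at both genes, and the Sp1-type motif at Mfap2 but not in the Emilin1 window. Of 32851 promoter windows of the same length, 35.7% held the Sp1-type motif, 49.6% the Smad motif and 37.4% CCAAT, so none of these matches is uncommon. TATAAA, held by 13.6% of windows, the AP-1 motif, held by 7.81%, and the E-box, held by 7.15%, had no match in any of the 3 windows.

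Fibulins join elastin to microfibrils and to cell surfaces. Fbln5 (ENSMUSG00000021186, chromosome 12, 101746565 to 101819055, minus strand), which binds tropoelastin and integrins and is needed for elastic fibre assembly, was counted 6, 8 and 3 times in the wt libraries and 27, 29 and 29 times in the gld libraries. Its levels of 2.09 ± 1.02 and 6.78 ± 0.848 CPM (SD, n = 3) did not overlap between groups, as was the case for 33.3% of all genes tested. The log2 fold change of 1.70 ± 0.85 (SE) did not pass, with an edgeR adjusted p = 0.219 and adjusted p-values from 0.18 to 0.453 over the alternatives. From counting error alone the pooled ratio was 3.37, with a 95% exact interval of 1.99 to 6.06.

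Fbln2 (ENSMUSG00000064080, chromosome 6, 91212455 to 91272540, plus strand), a fibulin of basement membranes and elastic tissue, was counted 16, 0 and 10 times in the wt libraries and 3, 2 and 16 times in the gld libraries. No group stood apart, because 1 library in each departed from the other two. Its log2 fold change was −1.14 ± 1.32 (SE, edgeR adjusted p = 0.664), with −2.40 without gld 3 and −0.0035 without wt 1 as the extremes over the libraries left out. Ltbp2 (ENSMUSG00000002020, chromosome 12, 84783212 to 84876532, minus strand) encodes the member of the latent TGF-β binding protein family that does not bind latent TGF-β but binds fibrillin. The wt libraries held 10, 0 and 4 counts of it and the gld libraries 19, 17 and 14, and its highest wt library, at 4.70 CPM, lay within the gld range of 2.87 to 4.74 CPM. The log2 fold change was 1.08 ± 1.18 (SE, edgeR adjusted p = 0.644), and it was 0.47 without wt 2 and 2.64 without wt 1.

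Ratios within a library do not depend on the scaling, and 3 pairs of family members were compared this way with 0.5 added to each count. There were 22.4, 15.5 and 29.4 Fbn2 counts per Fbn1 count in wt and 139, 269 and 340 in gld. There were 2.54, 1.18 and 2.98 Mfap2 counts per Mfap5 count in wt and 15.8, 15.2 and 27.0 in gld. In both pairs the gld libraries all lay above the wt libraries, by 3.42 for Fbn2 to Fbn1 and 3.17 for Mfap2 to Mfap5 on the log2 scale. Each had p = 0.1 in a two-sided exact permutation test, the smallest that 3 against 3 libraries can give, and 0.15 adjusted over the 3 pairs. The Fbln2 to Fbln5 ratio had a mean log2 difference of −2.07, from −0.39 ± 3.21 to −2.46 ± 1.43 (SD, n = 3), with overlapping groups (exact permutation p = 0.4). Without wt 2, which had no Fbln2 count, its difference was −3.92. The ratios describe counts, and with different 3′ ends they are not ratios of molecules.

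**Figure D3:**
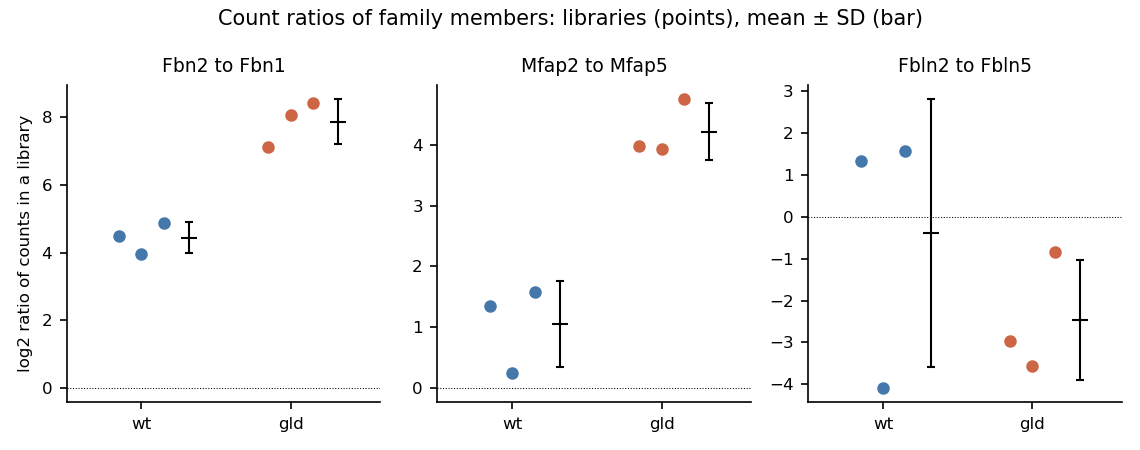
Log2 ratio of counts within each library (y axis, different in each panel) for 3 pairs of family members, in wt and gld. Points are libraries and bars are mean ± SD over 3 libraries. The gld libraries lie above the wt libraries for Fbn2 to Fbn1 and Mfap2 to Mfap5, and the groups overlap for Fbln2 to Fbln5.

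Genes that work with these proteins moved in both directions. The crosslinking enzymes, which oxidise lysines of tropoelastin and collagen, comprised 5 genes, of which 3 were tested: 0 rose and 2 fell. Loxl1, the family member tied most closely to elastic fibres, went from 1276 ± 56.1 to 630 ± 33.7 CPM and Loxl2 from 465 ± 52.5 to 206 ± 16.5 CPM (SD, n = 3). They fell by 1.02 ± 0.10 and 1.17 ± 0.13 on the log2 scale (SE, larger edgeR adjusted p = 1.41e-05), so both were lower in the libraries in which Eln was higher. Loxl4 did not pass, at 0.85 ± 0.68, and Lox had 3 counts in all.

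Of the other latent TGF-β binding proteins and the TGF-β ligands they hold in the matrix, 2 rose and none fell of 4 tested of 8. Tgfb2 went from 34.6 ± 4.54 to 179 ± 12.9 CPM and Tgfb3 from 131 ± 16.0 to 304 ± 53.2 CPM (SD, n = 3), increases of 2.37 ± 0.18 and 1.22 ± 0.16 on the log2 scale (SE, larger edgeR adjusted p = 7.9e-05). Tgfb1, at −0.23 ± 0.51, and Ltbp1, at −0.56 ± 1.26, did not pass. Ltbp3 and Ltbp4 had too few counts to be tested.

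Of 2 tested of 10 other fibulins, emilins and multimerins, 1 rose and 1 fell. Hmcn1, a very large fibulin-like protein, was counted 1, 16 and 2 times in the wt libraries and 61, 84 and 124 times in the gld libraries, a log2 fold change of 3.27 ± 0.72 (SE, edgeR adjusted p = 0.00495) that was 5.16 without wt 2. In wt only wt 2 reached the count minimum for Hmcn1, whereas every gld library did. Its passing the filter thus leaned on the group in which it was higher. Fbln1 fell by 0.48 ± 0.13 on the log2 scale (SE, edgeR adjusted p = 0.0205), from 281 ± 27.2 to 201 ± 13.4 CPM (SD, n = 3). Leaving out wt 2, wt 3 or gld 3 ended that call, at adjusted p = 0.0627, 0.088 and 0.0579. Efemp2, the fibulin that brings lysyl oxidase to elastin, was listed at 0 in all libraries. Its end is shared between transcripts, so this does not show that the transcript was missing.

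Of 2 tested of 11 ADAMTS and ADAMTS-like genes whose products act on or bind microfibrils, Adamtsl3 rose by 1.10 ± 0.20 on the log2 scale (SE, edgeR adjusted p = 0.000929), and Adamts10 had 0.65 ± 0.84. Of 6 tested of 9 matrix partners of microfibrils, 2 rose and none fell. Versican (Vcan), a proteoglycan that binds fibrillin, went from 33.3 ± 11.7 to 144 ± 15.9 CPM, and matrix Gla protein (Mgp), a mineralization inhibitor, from 5472 ± 273 to 11465 ± 1068 CPM (SD, n = 3). Their log2 fold changes were 2.10 ± 0.24 and 1.07 ± 0.09 (SE, larger edgeR adjusted p = 1.67e-05). Biglycan (Bgn), at 0.18 ± 0.14, and fibronectin (Fn1), at 0.05 ± 0.35, did not pass.

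Among the integrins that bind fibrillin, fibulins or MAGP-2 and the elastin receptor complex, none rose and 1 fell of 6 tested of 11, or 2 fell under scaling by total count alone. Itgb3, the β-chain of the RGD-binding vitronectin receptor, fell by 3.13 ± 0.37 on the log2 scale (SE, edgeR adjusted p = 2.46e-05), from 72.1 ± 20.5 to 8.16 ± 3.78 CPM (SD, n = 3). Itgb1 had −0.13 ± 0.10 and Itgb8 −0.52 ± 0.31, and neither passed. Of 4 tested of 12 proteases that cleave elastin, fibrillin or fibulins, 1 rose: cathepsin K (Ctsk), a strong elastase and collagenase, by 1.43 ± 0.13 on the log2 scale (SE, edgeR adjusted p = 1.53e-06). Mmp3, at 0.26 ± 0.19, and Mmp14, at 0.27 ± 0.12, did not pass, but Mmp14 was called higher without wt 2 (adjusted p = 0.00747) and Mmp3 without gld 2 (adjusted p = 0.0263).

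**Figure D4:**
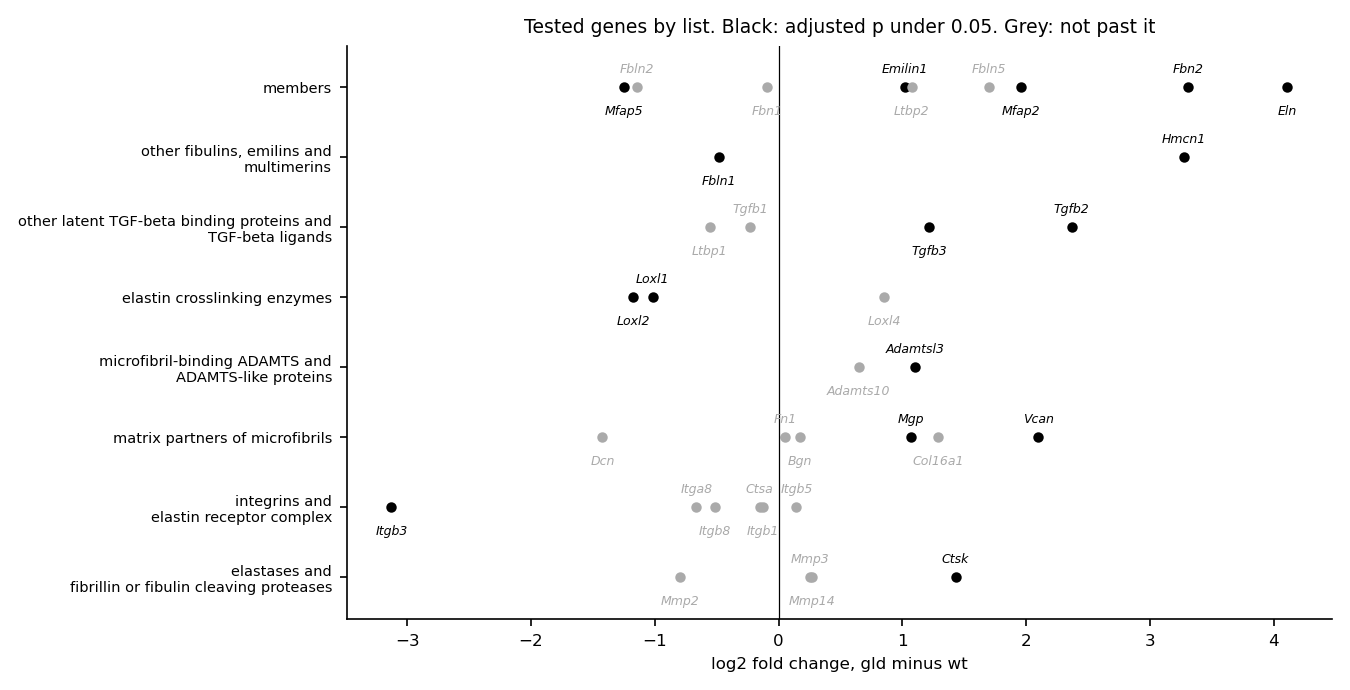
Log2 fold change, gld minus wt (x axis), of the tested genes of each list (y axis). Each point is 1 gene, black where the edgeR adjusted p was under 0.05 and grey otherwise. Among the lists beside the members, Tgfb2, Tgfb3, Vcan and Hmcn1 lie right of 0 and Loxl1, Loxl2 and Itgb3 left of it.

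Fbn2 had the smallest adjusted p of the 9 tested genes. The genes whose log2 CPM profiles over the 6 libraries, each centred on its own mean, lay nearest to it were Ssc5d, at a distance of 0.342, the minor fibrillar collagen gene Col11a1, at 0.425, and Il1rapl1, at 0.442, where the median distance of all genes was 4.18. Ssc5d went from 7.97 to 73.2 CPM and Col11a1 from 16.3 to 169 CPM. Il1rapl1 had no count in wt and 5.36 CPM in gld, so its likeness depends on the 2 counts added before taking logs.

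Markers of several cell types also differed between the groups, in both directions, and their part in these results was not tested. Of 7 tested of 12 macrophage markers, all 7 rose. Of these, C1qa, C1qb, C1qc, Cd68 and Laptm5 reached the count minimum in gld libraries only. Their passing the filter thus leaned on the group in which they were higher, and the count of rises is no independent result. The summed level of the 12 markers was 3.29 to 133 CPM in wt and 2218 to 6268 CPM in gld. The defining macrophage genes C1qa, C1qb and C1qc had at most 5 counts per wt library, against 334 to 1441 for gld, while Adgre1, Csf1r, Tyrobp, Fcer1g and Ctss were listed at 0. Apart from Csf1r, the genes at 0 have ends shared between transcripts, so their 0 does not show that the transcripts were missing. Within gld the macrophage sum was 2218, 3602 and 6268 CPM in libraries 1, 2 and 3.

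Smooth muscle and myofibroblast markers, which can accompany elastin in vessel walls, went the other way: 5 of 5 tested of 10 fell, with sums of 6964 to 7680 CPM in wt and 3321 to 3458 CPM in gld, and Actg2 and Myocd at 0. Chondrocyte markers gave 5 that rose of 6 tested of 11 (217 to 224 CPM in wt, 1063 to 1119 in gld; Col9a1, Col9a3 and Cnmd at 0). Among those 5, Acan, Col11a2 and Matn3 reached the count minimum in gld libraries only, so the count of rises is no independent result. In wt nearly all of the sum was Sox9, at 207, 220 and 218 CPM. Col2a1 had 9 counts, all in gld 1. Of 6 tested osteoblast markers of 11, 4 rose and 1 fell (16811 to 24627 CPM and 63328 to 69923 CPM). Nearly all of these sums was Col1a1 and Col1a2, so they give the level of these collagen genes and not of the list. Among the 4 that rose, Ibsp reached the count minimum in gld libraries only. Tendon and ligament markers gave 3 that rose of 5 tested of 7 (253 to 353 CPM and 768 to 822 CPM; Scx at 0). Kera, which rose, had no count in wt and reached the count minimum in gld libraries only. Neither of 2 tested endothelial markers of 9 passed (0.940 to 5.22 CPM and 4.48 to 15.7 CPM; Pecam1, Cdh5, Tek, Tie1, Emcn, Cldn5 and Vwf at 0). The 1 tested adipocyte marker of 7, Lpl, fell, and nearly all of the list's sum was Lpl (476 to 679 CPM and 91.6 to 129 CPM; Plin1, Pparg, Cidec and Cebpa at 0). Adipoq and Fabp4 had 1 and 15 counts over all libraries, so these sums give the level of Lpl and not of the list. Except for Cdh5, Cldn5 and Plin1, the markers given here at 0 have ends shared between transcripts. For those with shared ends, a count of 0 does not show that the transcript was missing.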

How the data were processed

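Per the series' design text, libraries were made from total RNA with the QuantSeq FWD kit, which reads transcripts near their 3′ ends, and Lexogen trimmed the reads with Cutadapt and aligned them with STAR. Per the submitters' processing notes the build was mm10, and FastQC, Trim Galore and DESeq2 are named. Not given in the sources used here are the counting tool, its handling of strand and the annotation version, so reads of overlapping or antisense genes cannot be assigned with certainty. The deposited table holds whole-number counts per Ensembl gene, not normalized. It has 57180 rows with an identifier and 1 blank row, which was left out, and 0 sample columns were left unused. Symbols were found for 51883 identifiers, and positions and transcript ends came from GENCODE M21 on GRCm38.

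Genes were kept by filterByExpr (about 10 counts in 3 libraries and 15 in total) and libraries were TMM-scaled. The groups were compared with the quasi-likelihood test of edgeR 4.0.16 in R 4.3.3, over all 6 libraries without covariates, with Benjamini-Hochberg adjustment over 8692 genes. Each SE is the size of the log2 fold change over √F. Intervals are exact, at 95%, from the binomial share of pooled counts. They cover counting error only, and the labels mention no molecular identifiers. Alternatives were total-count scaling, DESeq2 1.42.0, limma-voom (limma 3.58.1), no low-count filter, the replicate number as a block, and each library left out in turn. The edgeR fit was tested on simulated counts. From each gene list up to 4 called genes, by adjusted p, and up to 2 others, by level, are named, and from marker lists up to 3. Genes at 0 or with few counts that are named beside these, the markers named beside C1qa, C1qb and C1qc, and Gapdh, Lox, Efemp2, Ltbp3 and Ltbp4, were picked after their values were seen. Markers of other cell types named for the count minimum or for their share of a sum were picked the same way. The members, lists and tests were chosen with earlier results of these data known.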

Additional observations from a re-analysis of the deposited data

How the results depend on the processing

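Over 11 alternative fits the number of genes called ran from 1224 to 1695, against 1515, and the number of members called was 5, or 4 without wt 2 and without gld 3, where the Mfap5 call was lost. Leaving out 1 library leaves 2 in its group, whose spread is then assumed to be like that of the other group. Of 329 values of single named genes under these fits, 309 kept their direction and their side of the threshold, 5 lost a call, 2 gained one and 13 changed sign, none of the last called in either fit. Fbn1 turned to 0.40 without wt 2, 0.01 without gld 2 and 0.13 without gld 3, within a range of −0.56 to 0.40 over the libraries left out, and Fbln2 to 0.043 in limma-voom. Ltbp1 turned to 1.32 in limma-voom, 0.71 with the replicate block and 1.94 without wt 1 (range −1.16 to 1.94), and Tgfb1 to 0.22 without wt 2 and 0.04 without gld 1 (range −0.78 to 0.22). Fn1 turned to −0.10 under total-count scaling, −0.28 without wt 1 and −0.20 without gld 1 (range −0.28 to 0.36), and Mmp3 to −0.048 without gld 3 (range −0.048 to 0.47). The causes were not tested. Same-numbered wt and gld libraries did not deviate together (correlations of −0.02, −0.01 and −0.02 across genes), so the numbers were not taken as pairs. With the replicate block 1359 genes and the same number of members, 5, were called. The log2 difference of Fbn2 to Fbn1 ran from 3.15 to 3.80, that of Mfap2 to Mfap5 from 2.76 to 3.43 and that of Fbln2 to Fbln5 from −3.92 to −1.09 with each library left out, and with a pseudocount of 0.1 they were 3.41, 3.17 and −1.51. Fbn1, Fbln2, Fbln5 and Ltbp2 had 47 to 102 counts each over the 6 libraries. In wt the coefficient of variation was 50.6% for Fbn1, 107% for Fbln2 and 123% for Ltbp2, where counting error alone gives 27.2%, 34.6% and 47.0%.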

Other observations

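The called genes differed in how closely the libraries of a group agreed. In gld, Fbn2 had a coefficient of variation of 2.10%, where counting error alone gives 1.54%, and Eln had 8.63%, where it gives 5.62%. In wt, Mfap5 had 42.2% against 7.98% from counting and Emilin1 had 24.7% against 4.66%, with wt 2 the highest library for both genes. The same library was also the highest of the wt group for Fbn2, Fbn1 and Eln, at 120, 7.59 and 6.01 CPM, but the lowest for Mfap2, at 98.0 CPM.

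Tgfb2 and Itgb3 were among the listed partners with the largest changes, and in opposite directions. In gld Tgfb2 stood at 194, 175 and 169 CPM and Itgb3 at 9.23, 3.96 and 11.3 CPM, against 30.5, 39.5 and 33.8 CPM and 53.1, 93.9 and 69.4 CPM in wt.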
